A study of Homo sapiens with 3 samples.

Results

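The heat shock and chaperone genes described here are 83 of the 19689 protein-coding genes that GENCODE 44 places on the assembled human chromosomes. They were chosen by symbol, as the HSPA, HSPB, HSP90, DNAJA, DNAJB, DNAJC and CCT families together with HSPD1, HSPE1, HSPH1, TCP1 and AHSA1. Earlier results of these data were known when this choice was made. HSPBAP1 and HSPBP1, which resemble the HSPB genes only in name, were left out. For each gene, peaks within 1 kb of any of its protein-coding transcription start sites (TSS) were listed, and a peak counted for every gene in its reach.

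The peaks came from ChIP-seq, the sequencing of DNA that is precipitated from chromatin with an antibody, in HUCCT1, an established cholangiocarcinoma (bile duct cancer) cell line that the labels describe with no treatment or genetic change. Chromatin was precipitated with antibodies against SBNO1 (Strawberry Notch 1) or TAF4, which belongs to the basal transcription complex TFIID, or with rabbit IgG as the control for unspecific precipitation. According to the methods, the material of each antibody was a pool of several biological replicates. There were therefore 3 libraries, 1 per antibody, with no replicates, so that no difference between antibodies could be tested and no p-value was computed.

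The lists held 16147 peaks for SBNO1, 12763 for TAF4 and 1598 for IgG. Over all protein-coding genes, 5057 had an SBNO1 peak and 6280 a TAF4 peak within 1 kb of a TSS. The paper counted far fewer promoters bound by each protein within this distance. A gene with a peak here is therefore not one called bound by the standard of the paper. Peak lists hold no read numbers, so the sequencing depth behind each peak is unknown. Transcript levels were not measured in these libraries, and a peak says nothing about how strongly a gene was transcribed.

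Chaperones bind unfolded or newly made proteins and help them to reach or keep their native form. HSP70 proteins work in cycles of ATP hydrolysis that J-proteins (the DNAJ families) start, HSP90 acts later on selected clients, and the ring-shaped complexes CCT (also called TRiC) in the cytosol and HSP60 with HSP10 in mitochondria enclose their substrates. Part of these genes is always on in dividing cells, while others are induced when proteins unfold: the transcription factor HSF1 binds heat shock elements, runs of inverted GAA units, and in the endoplasmic reticulum (ER) ATF6 acts with NF-Y on the ER stress element.

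Since heat shock elements define the heat-inducible promoters, the reference sequence under the peaks was searched for them. A pair of units was searched as GAA and TTC, in either order, with any 2 bases between them. An element of 3 units was searched as GAA, TTC and GAA or as TTC, GAA and TTC, again with any 2 bases between units, and all searches covered both strands. Each element of 3 units contains 2 overlapping pairs. Matches to 3 units lay under SBNO1 peaks at 8 genes and under TAF4 peaks at 8 genes, of which CCT4, DNAJA1, HSP90AA1, HSPA8, HSPD1 and HSPE1 were common to both lists. Whole peaks were searched here, which was not done over all genes, so these matches have no background share. Shares in windows of equal length are given further below. The following stretches of GRCh38, each 30 bases long and read 5′ to 3′ along the gene, show these matches in capitals. They are given because they place the element inside the peak.
HSPA8 (chr11:123062170-123062199, minus strand): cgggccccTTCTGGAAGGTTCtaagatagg
HSPA8 (chr11:123062345-123062374, minus strand): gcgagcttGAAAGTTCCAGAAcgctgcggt
HSP90AA1 (chr14:102087111-102087140, minus strand): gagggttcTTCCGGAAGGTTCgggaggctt
DNAJA1 (chr9:33025267-33025296, plus strand): cgccgggcgGAACTTTCCAGAAcgctcggt
HSPE1 (chr2:197500062-197500091, plus strand): gctcggTTCCAGAACTTTCCAGAAaatgcc
HSPD1 (chr2:197500062-197500091, minus strand): ggcattTTCTGGAAAGTTCTGGAAccgagc
CCT4 (chr2:61888595-61888624, minus strand): gccgctTTCTGGAAGGTTCGTGAAggcagt
The HSPD1 and HSPE1 lines are both strands of the same stretch, from which the genes are transcribed in opposite directions. At CCT4, HSPD1 and HSPE1, overlapping matches to 3 units form the longer run in capitals. The other 4 genes with such a match had it under the peak of a single antibody, SBNO1 for CCT8 and DNAJB5 and TAF4 for HSPH1 and DNAJB6.
CCT8 (chr21:29073387-29073416, minus strand): ggggaagaGAAGATTCCAGAAagggaggtg
DNAJB5 (chr9:34989297-34989326, plus strand): tcgcaagggTTCCAGAAGGTTCtcctggga
HSPH1 (chr13:31161942-31161971, minus strand): gccgcagaTTCTGGAAAGTTCtgatcagtg
DNAJB6 (chr7:157336864-157336893, plus strand): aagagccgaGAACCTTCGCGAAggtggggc

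SBNO1 peaks were found at 48 of the 83 chaperone genes (57.8%, 95% Clopper-Pearson interval 46.5% to 68.6%), whereas 25.7% of all protein-coding genes had one. TAF4 peaks were found at 52 (62.7%, interval 51.3% to 73.0%), against 31.9% of all genes. No chaperone gene had an IgG peak, against 1.41% of all genes. A count of 0 of 83 allows a share of up to 3.61% by the rule of 3 counts and up to 4.35% by the Clopper-Pearson interval. The intervals and this limit cover counting error only, and genes are not replicates.

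Both proteins had a peak at 46 chaperone genes (55.4%, interval 44.1% to 66.3%), compared with 22.6% of all genes. DNAJC11 and DNAJC24 had an SBNO1 peak alone (2 genes, 2.41%, against 3.08% of all genes). A TAF4 peak alone was found at 6 genes (7.23%, against 9.29%), namely CCT2, DNAJB6, DNAJC2, DNAJC10, DNAJC13 and DNAJC17. In all, 54 chaperone genes (65.1%) had a peak of at least one protein, against 35% of all genes, and the remaining 29 (34.9%, against 65%) had neither. Thus, where a chaperone gene had a peak of one protein it mostly had a peak of the other as well. This was not particular to chaperone genes, since 4450 of all genes had both, of 5057 with SBNO1 and 6280 with TAF4. The larger share than among all genes lay in the class with both.

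**Figure D1:**
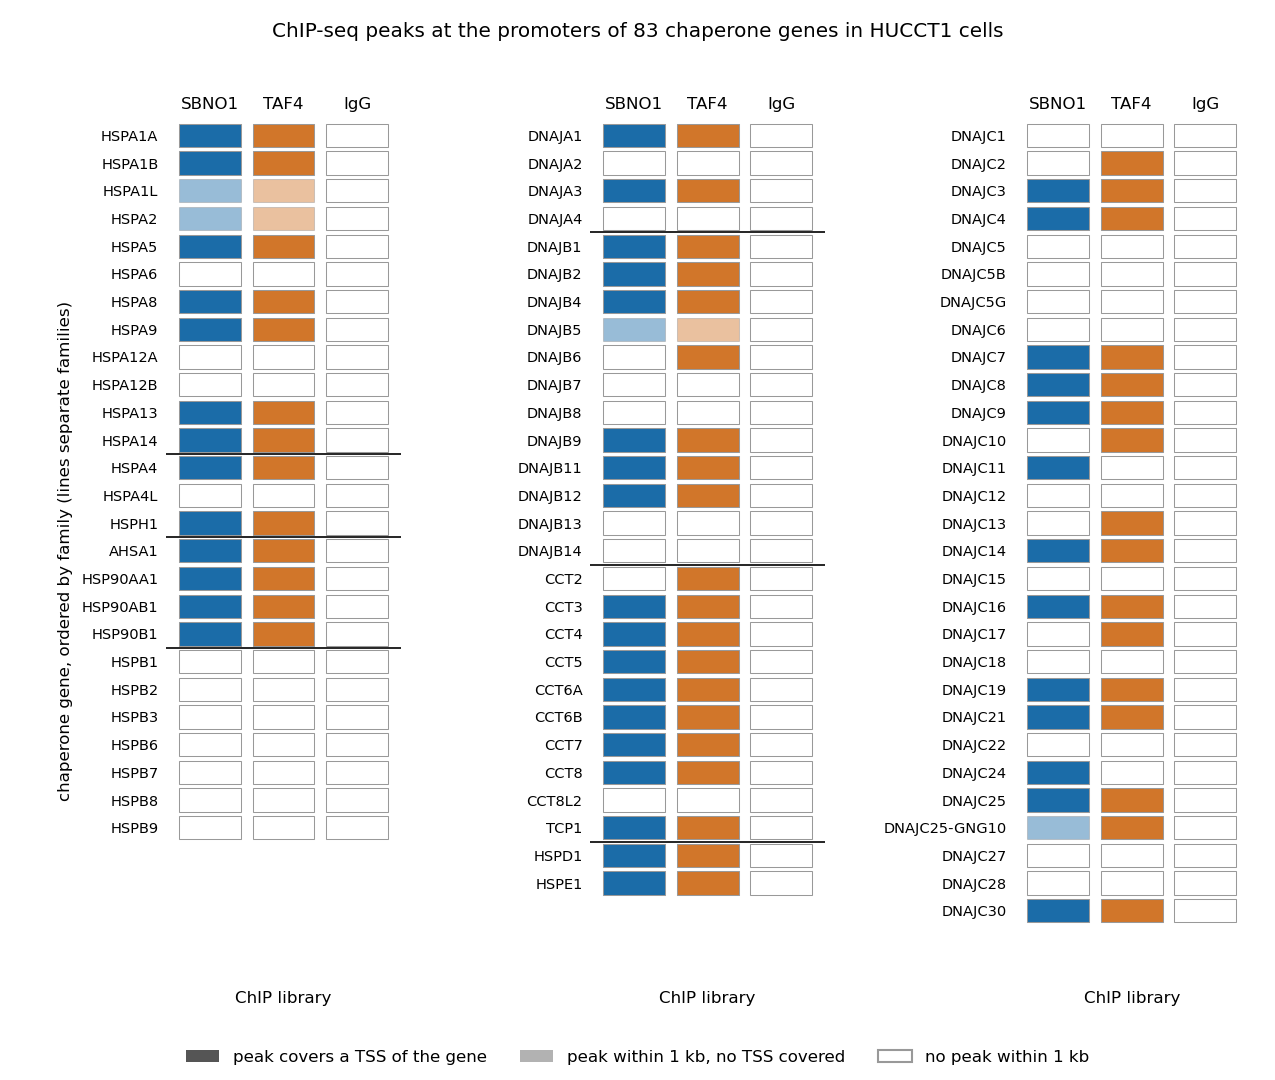
Each row is 1 of the 83 chaperone genes and each column is 1 ChIP library. Filled boxes are genes with a peak within 1 kb of a TSS, paler boxes are those whose peak covers no TSS, and white boxes have no peak. The IgG column is empty, and the small heat shock protein genes (HSPB) are empty in all 3 columns.

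Gene neighbourhoods moved with these counts. Of the chaperone genes, 28 (33.7%) had the TSS of another gene within 1 kb, compared with 18.3% of all genes. In these, 78.6% had an SBNO1 and 82.1% a TAF4 peak (48.1% and 58.1% over all genes with such a neighbour). Among the 55 chaperone genes without a neighbour, 47.3% had an SBNO1 and 52.7% a TAF4 peak, against 20.7% and 26.0% of all genes without one. The larger share at chaperone genes was therefore measured in both settings. Some genes also share 1 peak: the 48 genes had 45 distinct nearest SBNO1 peaks and the 52 genes had 49 distinct nearest TAF4 peaks.

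**Figure D2:**
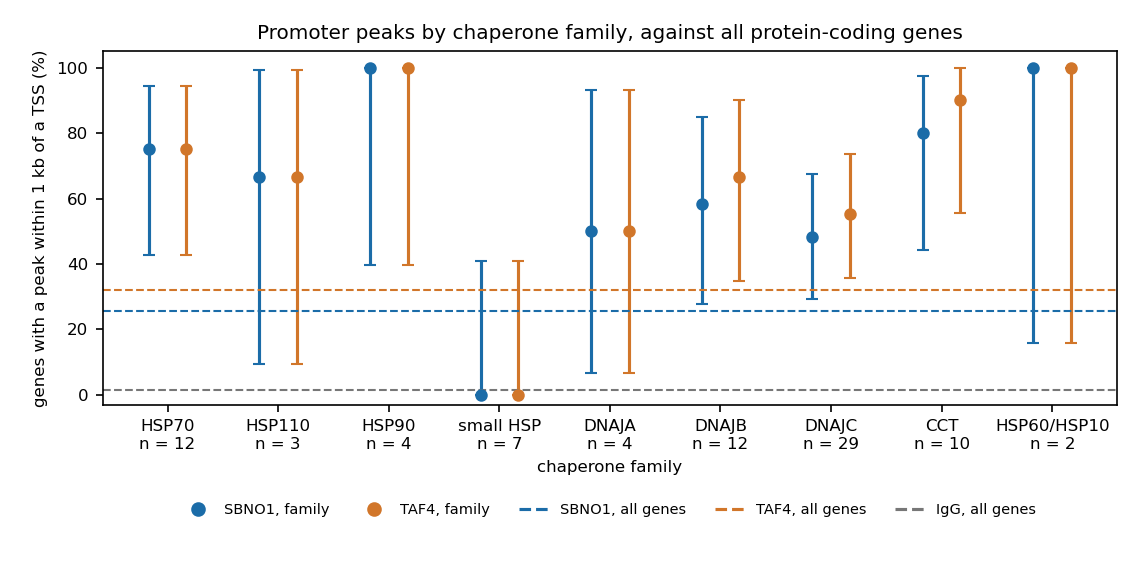
Points give the share (%) of each chaperone family with an SBNO1 (blue) or TAF4 (orange) peak within 1 kb of a TSS, bars are 95% Clopper-Pearson intervals, and n is the number of genes. Dashed lines mark the share over all protein-coding genes (25.7% for SBNO1, 31.9% for TAF4, 1.41% for IgG). The small heat shock proteins lie at 0%, and the HSP90 and HSP60/HSP10 families at 100% with wide intervals.

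Of the 12 HSP70 genes, 9 had a peak of both proteins and 3 had neither (75%, interval 42.8% to 94.5%, for each protein). Over all genes, the shares were 25.7% for SBNO1, 31.9% for TAF4 and 22.6% for both. The heat-inducible gene HSPA1A had an SBNO1 peak at chr6:31815315-31815644 (330 bp, score 762) and a TAF4 peak at chr6:31815294-31815619 (326 bp, score 1000), both over its TSS. The score is the authors' whole number, which ends at 1000 and whose scaling was not stated, and it orders peaks only within 1 list. Further upstream a second SBNO1 peak (chr6:31814552-31814840) and a second TAF4 peak (chr6:31814560-31814885) overlapped each other.

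HSPA1L, a testis-expressed HSP70 gene transcribed in the opposite direction from the same region, was counted through these same peaks, the nearest of which ended 32 bp (SBNO1) and 11 bp (TAF4) from its TSS. HSPA1B, the near copy of HSPA1A, had the widest SBNO1 peak of all chaperone genes (chr6:31826948-31827915, 968 bp, score 646) and a TAF4 peak of 933 bp (chr6:31826950-31827882, score 1000). The sequences upstream of both genes were identical at 141 of 149 compared bases (94.6%), so that short reads may not separate these copies and the peaks of HSPA1A and HSPA1B are uncertain as 2 separate measurements. The same pair of heat shock units lay under the peaks at both TSS, and the wider peaks of HSPA1B held another pair centred at -388.5 bp. The shared pair is shown in capitals for HSPA1A within the 150 bases before the TSS (chr6:31815393-31815542, plus strand) and for HSPA1B in a shorter stretch (chr6:31827622-31827651, plus strand).
HSPA1A: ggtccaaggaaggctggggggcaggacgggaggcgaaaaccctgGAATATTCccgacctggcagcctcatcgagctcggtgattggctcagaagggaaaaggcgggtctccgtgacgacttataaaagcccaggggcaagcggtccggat
HSPA1B: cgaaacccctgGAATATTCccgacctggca

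HSPA8, the constitutive cytosolic HSP70, had wide peaks at the score limit of 1000 in both lists, 880 bp for SBNO1 (chr11:123061999-123062878) and 1100 bp for TAF4 (chr11:123061930-123063029). Each covered 6 of its TSS and both elements of 3 units shown above, which were centred at -49 bp and -8 bp from the nearest TSS, negative values being upstream. HSPA5 (BiP), the HSP70 of the ER, had an SBNO1 peak at chr9:125241231-125241780 (550 bp, score 1000) and a TAF4 peak at chr9:125241173-125241759 (587 bp, score 1000), each over 3 TSS. HSPA9 (mortalin), the mitochondrial HSP70, had SBNO1 peaks at chr5:138574997-138575471 (475 bp, score 546) and chr5:138575589-138576009 (421 bp, score 1000). Its single TAF4 peak (chr5:138575282-138575990, 709 bp, score 1000) overlapped both. HSPA2, HSPA13 and HSPA14 also had both, although the peaks at HSPA2 covered no TSS and ended 31 bp (SBNO1) and 225 bp (TAF4) from it.

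The HSP70 genes with neither peak were HSPA6, HSPA12A and HSPA12B. HSPA6 is a strictly heat-inducible HSP70 that is nearly silent in unstressed cells. Its nearest SBNO1 peak lay 6445 bp away and its nearest TAF4 peak 87878 bp. The 150 bases before its TSS (chr1:161524390-161524539, plus strand) hold an element of 3 units, in capitals, so that such a match occurred without a peak as well.
HSPA6: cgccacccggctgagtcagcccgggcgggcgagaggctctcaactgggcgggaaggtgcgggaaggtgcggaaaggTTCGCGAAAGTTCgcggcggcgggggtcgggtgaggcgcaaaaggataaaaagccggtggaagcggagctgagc

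HSP110 proteins are large relatives of HSP70 that exchange its nucleotide. HSPA4 had an SBNO1 peak of 510 bp (chr5:133051613-133052122) and a TAF4 peak of 520 bp (chr5:133051566-133052085), both at a score of 1000 and over its TSS. HSPA4L, its relative in germ cells, had neither. HSPH1, the heat-inducible HSP110, differed between the proteins: SBNO1 had 1 peak (chr13:31162368-31162645, 278 bp, score 1000) over the upstream start at 31162388, and TAF4 had a peak over this start (chr13:31162264-31162514, 251 bp, score 1000) and another over the downstream start at 31161927 (chr13:31161795-31162153, 359 bp, score 1000). The HSPH1 element of 3 units lay in the second TAF4 peak, at -30 bp from the downstream start.

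All 4 genes of the HSP90 group had a peak of both proteins (interval from 39.8%, against 22.6% of all genes). HSP90AA1, the inducible cytosolic HSP90, had them at both of its start regions. At the start at 102087044, the SBNO1 peak was 536 bp wide (chr14:102086848-102087383, score 945) and the TAF4 peak 590 bp (chr14:102086852-102087441, score 1000), and both held the element of 3 units, at -82 bp. At the distant start at 102139699, shared with WDR20, the SBNO1 peak was 587 bp (chr14:102139590-102140176, score 929) and the TAF4 peak 1313 bp (chr14:102139038-102140350, score 988).

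HSP90AB1, the constitutive cytosolic form, had an SBNO1 peak (chr6:44246713-44247239, 527 bp, score 1000) and a TAF4 peak (chr6:44246892-44247358, 467 bp, score 1000) over its main starts, and a TAF4 peak without SBNO1 over an upstream start (chr6:44246036-44246541, 506 bp, score 679). AHSA1, which stimulates the ATPase of HSP90, had peaks of 734 bp (SBNO1, chr14:77457415-77458148) and 913 bp (TAF4, chr14:77457267-77458179), both at a score of 1000 and in reach of VIPAS39 as well. HSP90B1 (GRP94), the HSP90 of the ER, had the widest TAF4 peak of all chaperone genes at 1318 bp (chr12:103929396-103930713, score 1000), in which an SBNO1 peak of 463 bp (chr12:103930038-103930500, score 1000) was contained.

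The ER stress element, searched as CCAAT and CCACG with any 9 bases between them, is the classical sign of genes induced by unfolded proteins in the ER. It was found under the SBNO1 and TAF4 peaks of HSPA5 and HSP90B1 and of no other chaperone gene. The same search of whole peaks was not made over all genes. These matches are shown because they sit close to an annotated TSS, the nearest of several per gene. Their centres lay at -18 bp for HSPA5 and at -107 bp and, in reverse orientation, -2 bp for HSP90B1. Counted from the RefSeq gene start, the same matches began at -66 bp for HSPA5 and at -194 bp and -89 bp for HSP90B1.
HSPA5 (chr9:125241385-125241414, minus strand): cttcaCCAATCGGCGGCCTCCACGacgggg
HSP90B1 (chr12:103930210-103930239, plus strand): ccctgaCCAATCGGAAGGAGCCACGcttcg
HSP90B1 (chr12:103930315-103930344, plus strand): tgggtgCGTGGTGCGGCGCGATTGGtgggt

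No small heat shock protein gene had a peak. These proteins hold unfolded proteins without using ATP, and several are typical of muscle. All 7, namely HSPB1, HSPB2, HSPB3, HSPB6, HSPB7, HSPB8 and HSPB9, lacked SBNO1, TAF4 and IgG peaks within 1 kb. With 7 genes the interval runs up to 41.0% and holds the shares over all genes (25.7% and 31.9%), so that a lower share is not shown. Their relatives CRYAA, CRYAB and ODF1, which have other symbols, had no peak either. HSPB1 (HSP27) is heat-inducible in many cell types. Its nearest SBNO1 peak was 10600 bp and its nearest TAF4 peak 55239 bp away. The 150 bases before its TSS (chr7:76302523-76302672, plus strand), given as a contrast to the genes with peaks, hold no match to a pair of heat shock units, although 1 match lay elsewhere in its promoter of 300 bases.
HSPB1: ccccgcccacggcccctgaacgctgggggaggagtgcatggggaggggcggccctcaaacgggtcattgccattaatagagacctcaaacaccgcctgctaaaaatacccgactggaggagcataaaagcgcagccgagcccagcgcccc

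J-proteins were divided. Of the 45 DNAJ genes, 23 had an SBNO1 peak (51.1%, interval 35.8% to 66.3%, against 25.7% of all genes). TAF4 peaks were at 26 (57.8%, interval 42.2% to 72.3%, against 31.9%). Neither protein had a peak at 17 of the 45, a smaller share than the 65% of all genes. Within DNAJA, DNAJA1 and DNAJA3 had both and DNAJA2 and DNAJA4 neither. DNAJA1, a heat-inducible partner of HSP70, had an SBNO1 peak of 278 bp (chr9:33025081-33025358, score 1000) inside a TAF4 peak of 601 bp (chr9:33024845-33025445, score 1000), with the element of 3 units centred 9 bp downstream of its TSS. DNAJA2 and DNAJA3 lie on chromosome 16, where 8.19% of all genes had an SBNO1 and 18.9% a TAF4 peak, the part of which in the missing peaks of DNAJA2 was not tested.

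In the DNAJB family, 7 of 12 genes had SBNO1 and 8 had TAF4 (58.3% and 66.7%, against 25.7% and 31.9% of all genes). DNAJB1 (HSP40), the classical heat-inducible J-protein, had a TAF4 peak at 2 places and an SBNO1 peak at 1. The TAF4 peak at the start at 14518407 (chr19:14518246-14518719, 474 bp, score 1000) had no SBNO1 peak over it and held 2 pairs of heat shock units, centred at -33.5 bp and -63.5 bp. Both proteins had a peak at the start at 14529341, which is shared with TECR (SBNO1 at chr19:14529325-14529602, 278 bp, score 746, and TAF4 at chr19:14529091-14529869, 779 bp, score 662). Thus for DNAJB1 as for HSPH1, the start with the heat shock units had a TAF4 peak and the SBNO1 peak covered another start.

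DNAJB4 had an SBNO1 peak of 882 bp (chr1:78004062-78004943, score 526) over one TSS, with a TAF4 peak of 276 bp (chr1:78004700-78004975, score 978). Both proteins also had a peak near another TSS of DNAJB4, in reach of FUBP1: the TAF4 peak was 1025 bp wide (chr1:77978613-77979637, score 618, 547 bp from the TSS) and contained an SBNO1 peak of 705 bp (chr1:77978832-77979536, score 700, 648 bp from the TSS). DNAJB5 was the single gene with both proteins whose peaks did not overlap, since SBNO1 lay at chr9:34989230-34989627 and TAF4 at chr9:34992433-34992724, next to different starts. DNAJB6, which suppresses protein aggregation, had TAF4 alone (chr7:157336871-157337142, 272 bp, score 746) and its nearest SBNO1 peak was 24729 bp away.

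The J-proteins of the ER mostly had peaks. DNAJB9, DNAJB11, DNAJB12 and DNAJC3 had both, DNAJC10 (a disulfide reductase) had TAF4 alone and DNAJB14 and DNAJC1 had neither. DNAJB11 had both proteins at each of its starts, with SBNO1 peaks of 365 bp and 529 bp and TAF4 peaks of 330 bp and 706 bp. DNAJB14 had a TAF4 peak at 2450 bp and an SBNO1 peak at 3655 bp, beyond the distance of 1 kb and near the start of H2AZ1. With HSPA5, HSPA13 and HSP90B1, 7 of 10 ER chaperone genes had SBNO1 (interval 34.8% to 93.3%, against 25.7% of all genes). TAF4 was at 8 of them (interval 44.4% to 97.5%, against 31.9%).

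DNAJC is the largest and most varied family. Of its 29 genes, 12 had both, 2 had SBNO1 alone, 4 had TAF4 alone and 11 had neither. Over all genes, these classes held 22.6%, 3.08%, 9.29% and 65%. DNAJC11, a protein of mitochondrial membrane organisation, had the narrowest SBNO1 peak of all chaperone genes (chr1:6701760-6701951, 192 bp, score 1000) over 3 TSS, and its nearest TAF4 peak was 67213 bp away. DNAJC24, which acts in diphthamide synthesis, had an SBNO1 peak of 224 bp (chr11:31369706-31369929, score 1000) and its nearest TAF4 peak was 139528 bp away.

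TAF4 without SBNO1 was found at DNAJC2 (chr7:103344733-103344988, 256 bp, score 1000), a ribosome-bound J-protein whose start is close to that of PSMC2. It was also found at DNAJC10 (chr2:182715869-182716316, 448 bp, score 482), at the endosomal DNAJC13 (chr3:132417161-132417572, 412 bp, score 907) and at DNAJC17 (chr15:40807400-40807685, 286 bp, score 859), whose peak is also in reach of ZFYVE19. The score of DNAJC10 was the lowest of all TAF4 peaks nearest to a chaperone gene. Each of these peaks covered a TSS, and the nearest SBNO1 peaks lay between 13614 bp (DNAJC17) and 360570 bp (DNAJC10) away. DNAJC25-GNG10 is a readthrough gene that was counted through the peaks of DNAJC25.

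Nearly all subunits of the cytosolic folding ring had both proteins. TCP1 and CCT2, CCT3, CCT4, CCT5, CCT6A, CCT7 and CCT8 form the ring that folds actin and tubulin. SBNO1 was at 7 of these 8 genes (87.5%, interval 47.3% to 99.7%, against 25.7% of all genes). TAF4 was at 8 (interval from 63.1%, against 31.9%). CCT2 was the exception, with TAF4 alone (chr12:69585255-69585657, 403 bp, score 904) and the nearest SBNO1 peak 179564 bp away. CCT6B, the testis form of CCT6A, had both, and CCT8L2, a germline copy, had neither.

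Among the subunits, the SBNO1 peaks of CCT5 (chr5:10249844-10250741, 898 bp, score 653) and CCT8 (chr21:29073178-29074094, 917 bp, score 734) were among the 5 widest of the chaperone genes. Their TAF4 peaks were 737 bp (chr5:10249934-10250670, score 787) and 431 bp (chr21:29073455-29073885, score 1000), and the CCT8 element of 3 units lay outside the narrower TAF4 peak. CCT4 had peaks of similar width, 463 bp for SBNO1 (chr2:61888351-61888813, score 617) and 429 bp for TAF4 (chr2:61888399-61888827, score 974), and its element was centred 46.5 bp downstream of its TSS. As at DNAJA1, the element of CCT4 thus lay just behind a start and not before it.

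TCP1, CCT3, CCT5, CCT6A and CCT7 share their peaks with the genes MRPL18, TSACC, ATPSCKMT, PSPH and PRADC1, respectively. At TCP1 the SBNO1 peak (chr6:159789608-159789867, 260 bp, score 781) lay inside a TAF4 peak of 493 bp (chr6:159789570-159790062, score 922). At CCT3 the peaks were 608 bp (SBNO1, chr1:156337994-156338601, score 980) and 834 bp (TAF4, chr1:156338052-156338885, score 1000). In CCT6A the SBNO1 peak (chr7:56051393-56051849, 457 bp, score 1000) was contained in the TAF4 peak (chr7:56051270-56051978, 709 bp, score 1000). For CCT7 the TAF4 peak (chr2:73234035-73234689, 655 bp, score 839) likewise enclosed the SBNO1 peak (chr2:73234040-73234388, 349 bp, score 930). TCP1 and CCT7 each had a second TAF4 peak upstream without SBNO1.

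HSPD1 (HSP60) and HSPE1 (HSP10), the mitochondrial folding chamber and its lid, are transcribed in opposite directions and share 1 peak of each protein: SBNO1 at chr2:197499815-197500433 (619 bp, score 1000) and TAF4 at chr2:197499764-197500458 (695 bp, score 1000). Both peaks covered the starts of both genes and the shared element, which was centred at -63.5 bp from the start of HSPE1 and at 131.5 bp from the nearest start of HSPD1. A TAF4 peak without SBNO1 lay 475 bp from a distant start of HSPD1, near MOB4. Of the 8 mitochondrial chaperone genes, 7 had SBNO1 (interval 47.3% to 99.7%, against 25.7% of all genes), and DNAJC15 was without. TAF4 was at 6 (interval 34.9% to 96.8%, against 31.9%), and DNAJC11 and DNAJC15 were without.

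The genes listed as heat-inducible had peaks of both proteins in 11 of 13 cases (84.6%, interval 54.6% to 98.1%, against 22.6% of all genes), and the cells were not described as heated. This list includes HSPA8 and HSP90AB1, which are also transcribed without stress. HSPA6 and HSPB1 were the 2 without. The list was drawn up with earlier results of these data known. Its genes are not all separate observations, since HSPD1 and HSPE1 share a peak of each protein and HSPA1A and HSPA1B may not be separable. Of the 13 chaperone genes listed as typical of germ cells or muscle, 2 had peaks of both (15.4%, interval 1.92% to 45.4%), an interval that holds the share over all genes. These were HSPA1L, which shares the HSPA1A peaks, and CCT6B, whose start is close to that of ZNF830.

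**Figure D3:**
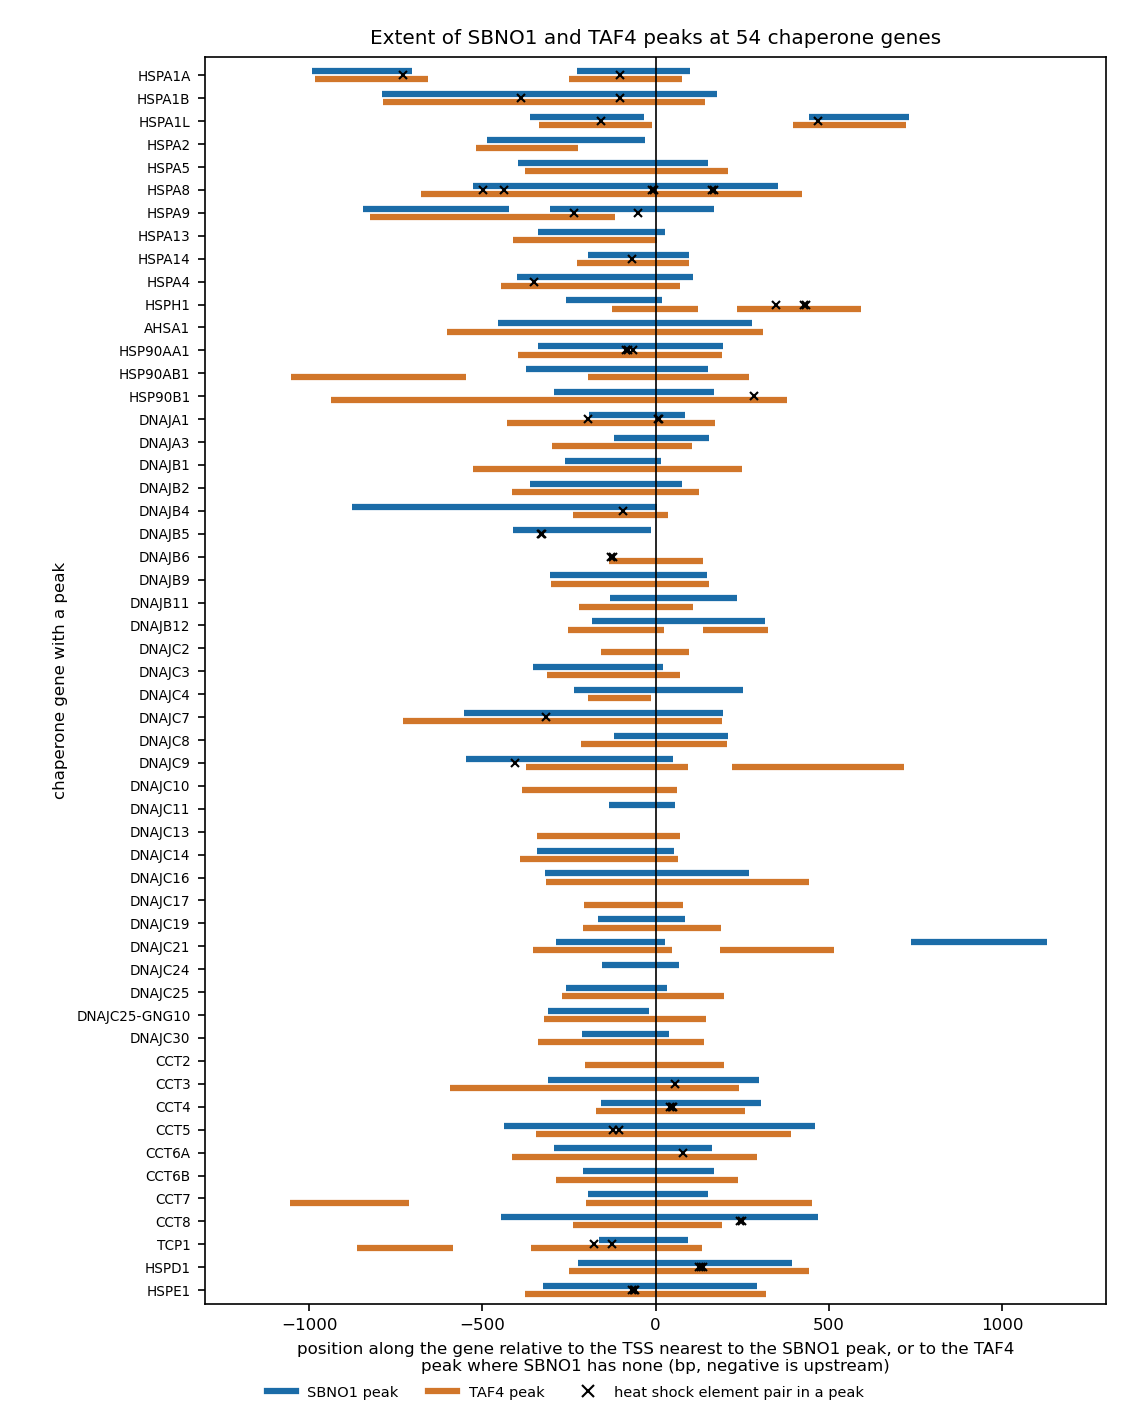
Horizontal bars show where SBNO1 (blue) and TAF4 (orange) peaks start and end at the 54 chaperone genes with a peak, in bp along the gene from the TSS nearest to the SBNO1 peak (TAF4 where SBNO1 has none), and crosses mark pairs of heat shock units inside a peak. Peaks over 1300 bp away, at other starts, are not drawn (4 for SBNO1 and 7 for TAF4). Blue and orange bars mostly cover the same stretch at the TSS, and several orange bars extend further.

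The peaks sat closely on the TSS. The nearest peak covered a TSS in 44 of 48 chaperone genes for SBNO1 (91.7%, against 84.6% over all genes) and in 49 of 52 for TAF4 (94.2%, against 90.4%). Relative to the TSS, the median position of the SBNO1 peak centre was -69.8 bp (-75.5 bp over all genes) and that of the TAF4 peak centre -79.8 bp (-66.5 bp over all genes). The median width was 456 bp for SBNO1 (range 192 to 968 bp) and 459 bp for TAF4 (range 183 to 1318 bp), compared with 420 bp and 417 bp over all genes. The score was at its limit in 40.0% of the SBNO1 peaks and 57.1% of the TAF4 peaks, against 32.4% and 51.2% over all genes. None of these peaks overlapped an IgG peak, and the nearest IgG peak to any chaperone gene was 23955 bp away, at DNAJB12.

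More than 1 peak in reach was seen at 8 chaperone genes for SBNO1 (16.7% of those with a peak, against 12.0% over all genes) and at 15 for TAF4 (28.8%, against 13.2%). At the 46 genes with both, the best overlapping pair of peaks was compared. The peaks overlapped in 45 (97.8%, against 98.6% of all genes with both), with DNAJB5 as the exception. They covered at least 50% of each other in 38 (82.6%, against 84.9%). The TAF4 peak was the wider in 33 (71.7%, against 58.2%). The distance between centres had a median of 48 bp (54.3 bp over all genes), which is well below the median width of a peak.

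Motifs were then counted in windows of 300 bases at the centre of the nearest peaks, 45 windows for SBNO1 and 49 for TAF4. A pair of heat shock units was found in 15 SBNO1 windows (33.3%) and 14 TAF4 windows (28.6%), against 12.0% and 10.1% of the windows at all genes with a peak. An element of 3 units was found in 6 SBNO1 windows (13.3%) and 5 TAF4 windows (10.2%), against 0.489% and 0.318%. The ER stress element was found in 2 SBNO1 windows (4.44%, against 0.210%) and in 1 TAF4 window, that of HSPA5 (2.04%, against 0.205%). These shares were described without a test, since genes of 1 family can share promoter sequence.

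**Figure D4:**
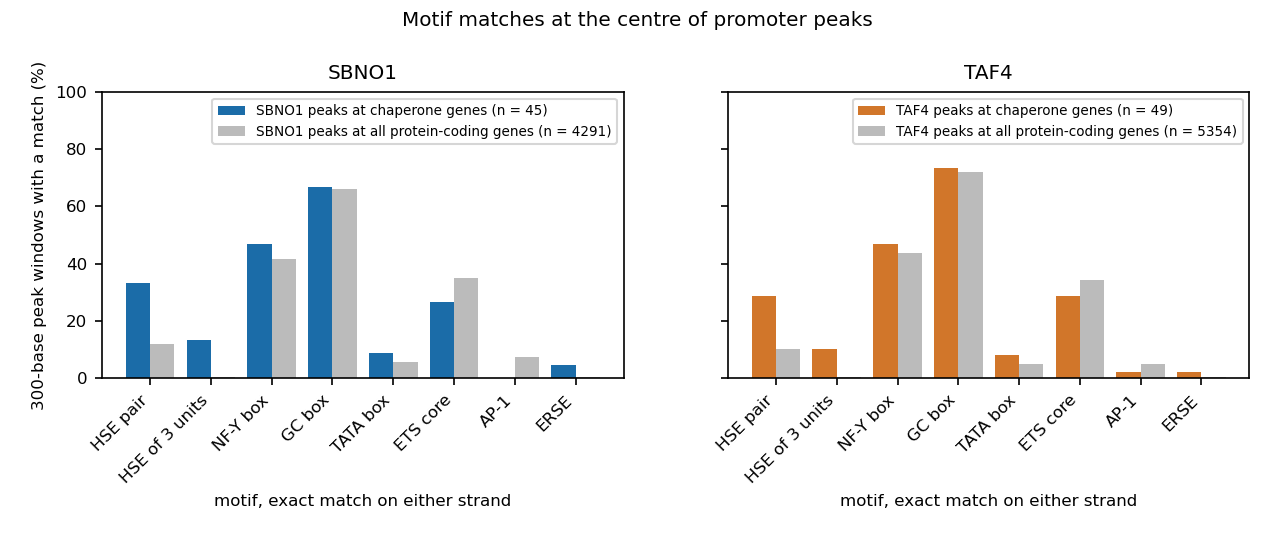
Bars give the share (%) of 300-base windows at peak centres that hold each motif, for chaperone genes (coloured; 45 SBNO1 and 49 TAF4 windows) and for all protein-coding genes with a peak (grey; 4291 and 5354 windows). HSE is the heat shock element, searched as pairs and as 3 units, and ERSE the ER stress element. Heat shock elements show the widest gap between coloured and grey bars, while the bars of the NF-Y box (CCAAT) and the GC box (GGGCGG) are of nearly equal height.

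Motifs of other factors were counted in the same windows. CCAAT, the site of NF-Y, was in 46.7% of the SBNO1 windows (41.6% over all genes) and 46.9% of the TAF4 windows (43.6%). GGGCGG, bound by SP and KLF factors, was in 66.7% (66.1%) and 73.5% (72.1%). The TATA box, as TATAAA, was in 8.89% (5.71%) and 8.16% (4.95%). CCGGAA, the core site of ETS factors, was in 26.7% (34.8%) and 28.6% (34.2%), and it can lie inside a heat shock pair, as at HSP90AA1. The AP-1 site (TGACTCA or TGAGTCA) was in no SBNO1 window of a chaperone gene and in 1 TAF4 window (2.04%), against 7.50% and 4.93%. With so few windows, a lower share at chaperone genes is not shown.

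In the RefSeq promoters of fixed length, 250 bases before to 50 after the gene start, the share with a heat shock pair was not higher at the genes with peaks. Of the 83 chaperone genes, 75 had a promoter sequence. A pair was in 22.7% of these, against 11.4% of all 15306 promoters, and 3 units were in 5.33%, against 0.359%. The 4 chaperone promoters with 3 units belonged to DNAJA1, DNAJB6, HSPA6 and HSPA8. Chaperone genes with both proteins had a pair in 20.5% (9 of 44) and those with neither in 29.2% (7 of 24). The fixed promoter does not always hold the stretch under the peak. HSP90AA1, HSPH1, DNAJB1, HSPD1 and HSPE1 had no pair in it, although pairs lay under their peaks. GC content was alike (median 63.5% with both, 62.2% with neither, 63.0% over all promoters), while the ratio of observed to expected CpG had a median of 0.839 with both and 0.588 with neither (0.855 and 0.660 over all promoters of these classes).

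Other genes of protein folding were counted in the same way, from a list of 63 genes with other symbols. SBNO1 peaks were at 34 (54.0%, interval 40.9% to 66.6%, against 25.7% of all genes) and TAF4 peaks at 48 (76.2%, interval 63.8% to 86.0%, against 31.9%). Both were at 33 of them, against 22.6% of all genes. PDCL, which assists CCT, was the 1 gene with SBNO1 alone, 15 genes had TAF4 alone and 14 had neither. An IgG peak was at 2 of these genes, STIP1 (the HOP adaptor between HSP70 and HSP90) and CANX (calnexin of the ER), against 1.41% of all genes. Without peaks that overlap IgG, SBNO1 was at 32 of the 63 genes (24.6% of all genes). TAF4 was then at 46 (30.8%) and both at 31 (21.4%).

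The smaller groups by role are given as counts, to be read against the same shares of all genes. All 10 nucleotide exchange factors of HSP70 had TAF4 and 7 had SBNO1, with BAG2, BAG5 and GRPEL1 as those without. Of 16 co-chaperones of HSP90 and HSP70, 11 had TAF4 and 7 had SBNO1, among them PTGES3 (p23), CDC37 and ST13, whereas STUB1 (the ubiquitin ligase CHIP), PPP5C, UNC45A, CHORDC1 and TTC4 had neither. Prefoldin subunits and CCT helpers had each protein in 7 of 9 genes. Of 10 ER folding factors, 9 had TAF4 and 6 had SBNO1, the latter including CALR, P4HB, PDIA4 and PDIA6.

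Transcription factors of the stress responses had SBNO1 in 4 and TAF4 in 5 of 6 genes, against 25.7% and 31.9% of all genes. HSF1, which drives the heat shock genes, and XBP1, ATF6 and ATF4 of the ER stress response had both proteins. HSF2 had TAF4 alone, and HSF4 had neither. Of 5 mitochondrial chaperones and proteases, CLPB and LONP1 had both, CLPX had TAF4 alone and TRAP1 and CLPP had neither. Among J-proteins with other symbols, SEC63 had both, HSCB had TAF4 alone and GAK had neither.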

How the data were processed

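ChIP-seq was measured in HUCCT1 cells with 3 libraries. Per the methods, reads were checked with FastQC, trimmed with ktrim and aligned to GRCh38.p14 with bowtie2. The methods name normR as peak caller, whereas the submitters' processing notes list Bowtie2 2.5.4 and Genrich 0.6.1. The threshold, the treatment of duplicates and the control used in calling are not given in the sources used here. The files deposited by the authors give position, name and a score per peak, and the score is not comparable between lists.

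All peaks were used. TSS came from the protein-coding transcripts of GENCODE 44 (78567 sites), and distance was measured from the peak edge in Python 3.11.15. Intervals were computed with scipy 1.17.1. Coordinates are 1-based on GRCh38. Promoter sequences are from RefSeq (GRCh38.p14) and stretches under peaks from the GRCh38 genome. Motifs were exact matches on either strand.

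The members and gene lists were chosen with earlier results of these data known. Any member could be named, with full values for the heat-inducible list, the CCT subunits, HSPD1, HSPE1, the HSP90 genes, HSPA5, HSPA9, genes with 1 of both proteins and the 5 widest peaks per protein. The sequences of CCT4, CCT8, DNAJB5, DNAJB6 and HSP90B1 were added after their matches were seen. DNAJB3 of the germline list was not among the genes analysed here. On simulated data all 1100 planted genes in reach and all 200 planted elements of 3 units were recovered. Alternatives were other distances, TSS sets and peak assignments, removal of peaks overlapping IgG, a score filter, a reciprocal overlap and other motif windows.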

Additional observations from a re-analysis of the deposited data

How the results depend on the processing

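No paired analysis was possible because the design holds 1 library per antibody. Of 69 alternatives over 24 results, 62 left the value within the limits set for a change and 7 moved it. For CCGGAA and TATAAA at chaperone genes with an SBNO1 peak, the direction changed together with the set they were compared with. Fixed promoters were set against all 15306 promoters, with or without a peak, and windows against the SBNO1 windows of all genes. CCGGAA was in 26.7% of their fixed promoters (23.1%) and in 26.7% of the SBNO1 windows (34.8%). TATAAA was in 8.89% of these promoters (9.64%) and in 8.89% of these windows (5.71%). In fixed promoters of genes with both proteins, the directions were those of the windows. There, CCGGAA was in 27.3% at chaperone genes against 36.8% over all genes, and TATAAA in 9.09% against 6.03%. Keeping only peaks with a score at or above the median of their list lowered the counts of chaperone genes from 48 to 29 for SBNO1 (13.1% of all genes) and from 46 to 26 for both proteins (9.21% of all genes). For the other protein-folding genes it gave 21 with SBNO1, 15 with both and 1 with IgG, and the use of 1 TSS per gene also gave 1 with IgG. Requiring a reciprocal overlap of 50% lowered the share of overlapping pairs to 82.6%. By construction these settings keep fewer peaks, starts or pairs. Across the other distances, start sets, assignments and filters, the share of chaperone genes was 2.04 to 2.66 times that of all genes for SBNO1 and 1.81 to 2.52 times for TAF4.

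Requiring a peak to cover a TSS removed DNAJB5, DNAJC25-GNG10, HSPA1L and HSPA2 for SBNO1 and DNAJB5, HSPA1L and HSPA2 for TAF4. At 3 kb, DNAJB14 gained TAF4. Assigning each peak to its nearest TSS gave 43 genes for SBNO1 (21.8% of all genes) and 41 for TAF4 (27.2%). Removing peaks that overlap IgG changed no chaperone gene. After seeing the data, DNAJC25-GNG10 and HSPA1L were left out, which gave 56.8% for SBNO1 and 61.7% for TAF4, and the motif windows at TAF4 peaks were added. Without replicates, the spread between libraries of 1 antibody is unknown, and without read numbers a missing peak is not evidence of absent binding.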

Other observations

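Inside chaperone genes but more than 1 kb from any TSS there were 6 SBNO1 peaks in 5 genes, 3 TAF4 peaks in 3 genes and no IgG peak. The same count was not made over all genes, so whether chaperone genes differ in it is unknown. DNAJC17 had 2 such SBNO1 peaks in introns, the larger of which (chr15:40787104-40788033, 930 bp, score 870) overlapped a TAF4 peak of 605 bp (chr15:40787230-40787834, score 1000), although its promoter had TAF4 alone. DNAJB12 had an SBNO1 peak of 605 bp and a TAF4 peak of 582 bp over one of its untranslated exons, about 9513 bp and 9587 bp from the nearest TSS. In DNAJB1 an intronic SBNO1 peak without TAF4 lay 1578 bp from a TSS (chr19:14519985-14520385, 401 bp, score 731). DNAJC5 and DNAJC15, which had no promoter peak, each had 1 intronic SBNO1 peak, and CCT6A had 1 intronic TAF4 peak.

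Among the 29 chaperone genes without a promoter peak of either protein, the nearest SBNO1 peak lay at a median of 41541 bp (range 3655 to 571281 bp) and the nearest TAF4 peak at a median of 46013 bp (range 2450 to 2480099 bp). The farthest SBNO1 peak belonged to DNAJA2 and the farthest TAF4 peak to DNAJC1, a J-protein of the ER.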
